A study of Mus musculus with 2 samples.

Results

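The 4 Hox clusters of the mouse were examined for CpG methylation in hippocampal DNA. The hippocampus is a part of the forebrain that serves memory. The clusters are HoxA on chromosome 6 (52.1 to 52.215 Mb), HoxB on chromosome 11 (96.05 to 96.232 Mb), HoxC on chromosome 15 (102.745 to 102.872 Mb) and HoxD on chromosome 2 (74.5 to 74.606 Mb), in coordinates of the mm9 build. The clusters were chosen by these positions and their 38 named Hox genes, not by any methylation value. A cytosine was analysed where it had at least 10 calls in both libraries. That left 7355 cytosines in the clusters, 0.318% of the 2312276 analysed in the genome, with 2148 in HoxA, 2147 in HoxB, 1438 in HoxC and 1622 in HoxD. The DNA was enriched with the SureSelect Mouse Methyl-Seq kit, so shares, levels and ranks given below for the genome cover analysed cytosines only.

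There were 2 libraries, both from the hippocampus of C57BL/6 mice. The control library came from untreated mice. The ATO library came from offspring whose exposure to arsenic trioxide (ATO, 5000 ppb in drinking water) began before their parents mated, ran through lactation and was continued in the weaned offspring. The labels give neither age nor sex, and do not say whether a library was 1 animal or a pool, so each difference given here is between 2 libraries and has no replicate check. The tables hold methylation alone, so the tissue label could not be checked against marker expression.

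Hox genes encode homeodomain transcription factors that give cells their position along the head-to-tail axis of the embryo and along the limbs. They lie in 4 clusters in which gene order follows the order of expression along the body, and the forebrain, from which the hippocampus forms, lies in front of the usual Hox domains. Where Hox genes are silent, Polycomb complexes commonly hold them with methylation of histone H3, and the CpG-rich DNA of the clusters is known to stay largely free of DNA methylation over long distances. The methylation level used below is the percent of bisulfite calls at a cytosine that read C and not T. In whole tissue a level between 0 and 100% does not tell a share of cells from a share of DNA copies within each cell.

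Promoter sequences give a view of the DNA behind these levels. RefSeq (build GRCm38.p6) gives the 250 bases before the start of transcription printed here, 5′ to 3′ on the strand of the gene, in lower case with every CpG in capitals. They were chosen to show the range among the promoters with values below. Hoxd8 had the largest rise in the ATO library and Hoxb1 the largest fall, Hoxa6 had the lowest ATO level, Hoxa7 stood next to the broadest partly methylated patch of HoxA, and Hoxd10 and Hoxd1 are dense in CpG.
Hoxd8: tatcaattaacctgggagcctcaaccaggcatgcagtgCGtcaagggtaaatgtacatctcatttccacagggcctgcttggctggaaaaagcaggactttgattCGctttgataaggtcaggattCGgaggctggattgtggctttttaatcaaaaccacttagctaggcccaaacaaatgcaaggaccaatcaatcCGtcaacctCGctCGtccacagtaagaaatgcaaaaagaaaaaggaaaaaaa
Hoxb1: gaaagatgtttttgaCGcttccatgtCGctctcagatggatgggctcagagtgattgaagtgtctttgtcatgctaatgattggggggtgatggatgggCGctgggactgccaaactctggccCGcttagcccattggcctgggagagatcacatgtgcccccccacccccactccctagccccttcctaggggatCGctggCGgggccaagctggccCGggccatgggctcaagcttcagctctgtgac
Hoxa6: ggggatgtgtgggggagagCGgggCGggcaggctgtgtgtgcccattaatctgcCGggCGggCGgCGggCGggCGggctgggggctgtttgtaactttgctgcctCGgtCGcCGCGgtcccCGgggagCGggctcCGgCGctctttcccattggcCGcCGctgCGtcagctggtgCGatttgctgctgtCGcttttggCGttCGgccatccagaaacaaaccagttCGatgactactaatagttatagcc
Hoxa7: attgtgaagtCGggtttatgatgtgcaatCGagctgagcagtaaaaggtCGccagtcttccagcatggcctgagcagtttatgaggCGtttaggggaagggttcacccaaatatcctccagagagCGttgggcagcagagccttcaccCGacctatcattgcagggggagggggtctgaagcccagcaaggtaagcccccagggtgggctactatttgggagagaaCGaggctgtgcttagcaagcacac
Hoxd10: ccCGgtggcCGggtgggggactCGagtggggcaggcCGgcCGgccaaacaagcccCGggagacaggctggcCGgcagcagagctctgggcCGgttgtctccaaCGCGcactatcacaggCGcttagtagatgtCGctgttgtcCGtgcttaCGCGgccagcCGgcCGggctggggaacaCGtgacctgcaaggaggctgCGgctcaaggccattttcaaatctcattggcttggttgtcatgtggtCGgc
Hoxd1: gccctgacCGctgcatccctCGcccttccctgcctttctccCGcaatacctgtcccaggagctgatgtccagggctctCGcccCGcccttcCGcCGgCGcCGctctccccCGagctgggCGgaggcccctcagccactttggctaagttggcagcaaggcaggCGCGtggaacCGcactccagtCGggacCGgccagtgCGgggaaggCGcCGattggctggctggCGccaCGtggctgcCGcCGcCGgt
The number of CpGs in these 250 bases was 6 for Hoxd8, 7 for Hoxb1, 7 for Hoxa7, 20 for Hoxd10, 24 for Hoxa6 and 24 for Hoxd1. The G and C content ran from 44.4% at Hoxd8 to 71.6% at Hoxd1. Every one of these promoters lay in an unmethylated stretch, the CpG-poor Hoxd8 included.

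Almost all analysed cytosines of the clusters lay in unmethylated stretches, with low means in both libraries. An unmethylated stretch was defined as a run of at least 10 analysed cytosines whose running mean over 5 neighbours, averaged over both libraries, stayed under 20% and which had no gap over 2000 bp. Such stretches held 7065 of the 7355 Hox cytosines (96.1%), against 45.3% of analysed cytosines in the rest of the genome. Only 29 Hox cytosines (0.394%) lay in methylated parts, where the running mean reached 50%, against 39.1% elsewhere. Another 214 (2.91%) were partly methylated, with a running mean from 20 to 50%, against 13% elsewhere. The remaining 47 (0.639%) were low but outside stretches. The share inside stretches was 96.4% in HoxA, 95.4% in HoxB, 95.1% in HoxC and 97.2% in HoxD.

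Over all its analysed cytosines HoxA had a mean level of 5.72% in the control library and 6.19% in the ATO library. HoxB had 6.61% and 6.45%, HoxC 5.84% and 5.80%, and HoxD 5.28% and 5.36%. The analysed cytosines in the rest of the genome had 38.1% and 36.8%. Depth was similar across the clusters, with a median of 42 calls per cytosine in the control library and 45 in the ATO library. The reverse strand held 98.4% of the analysed Hox cytosines, so the values rest almost wholly on 1 strand.

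**Figure D1:**
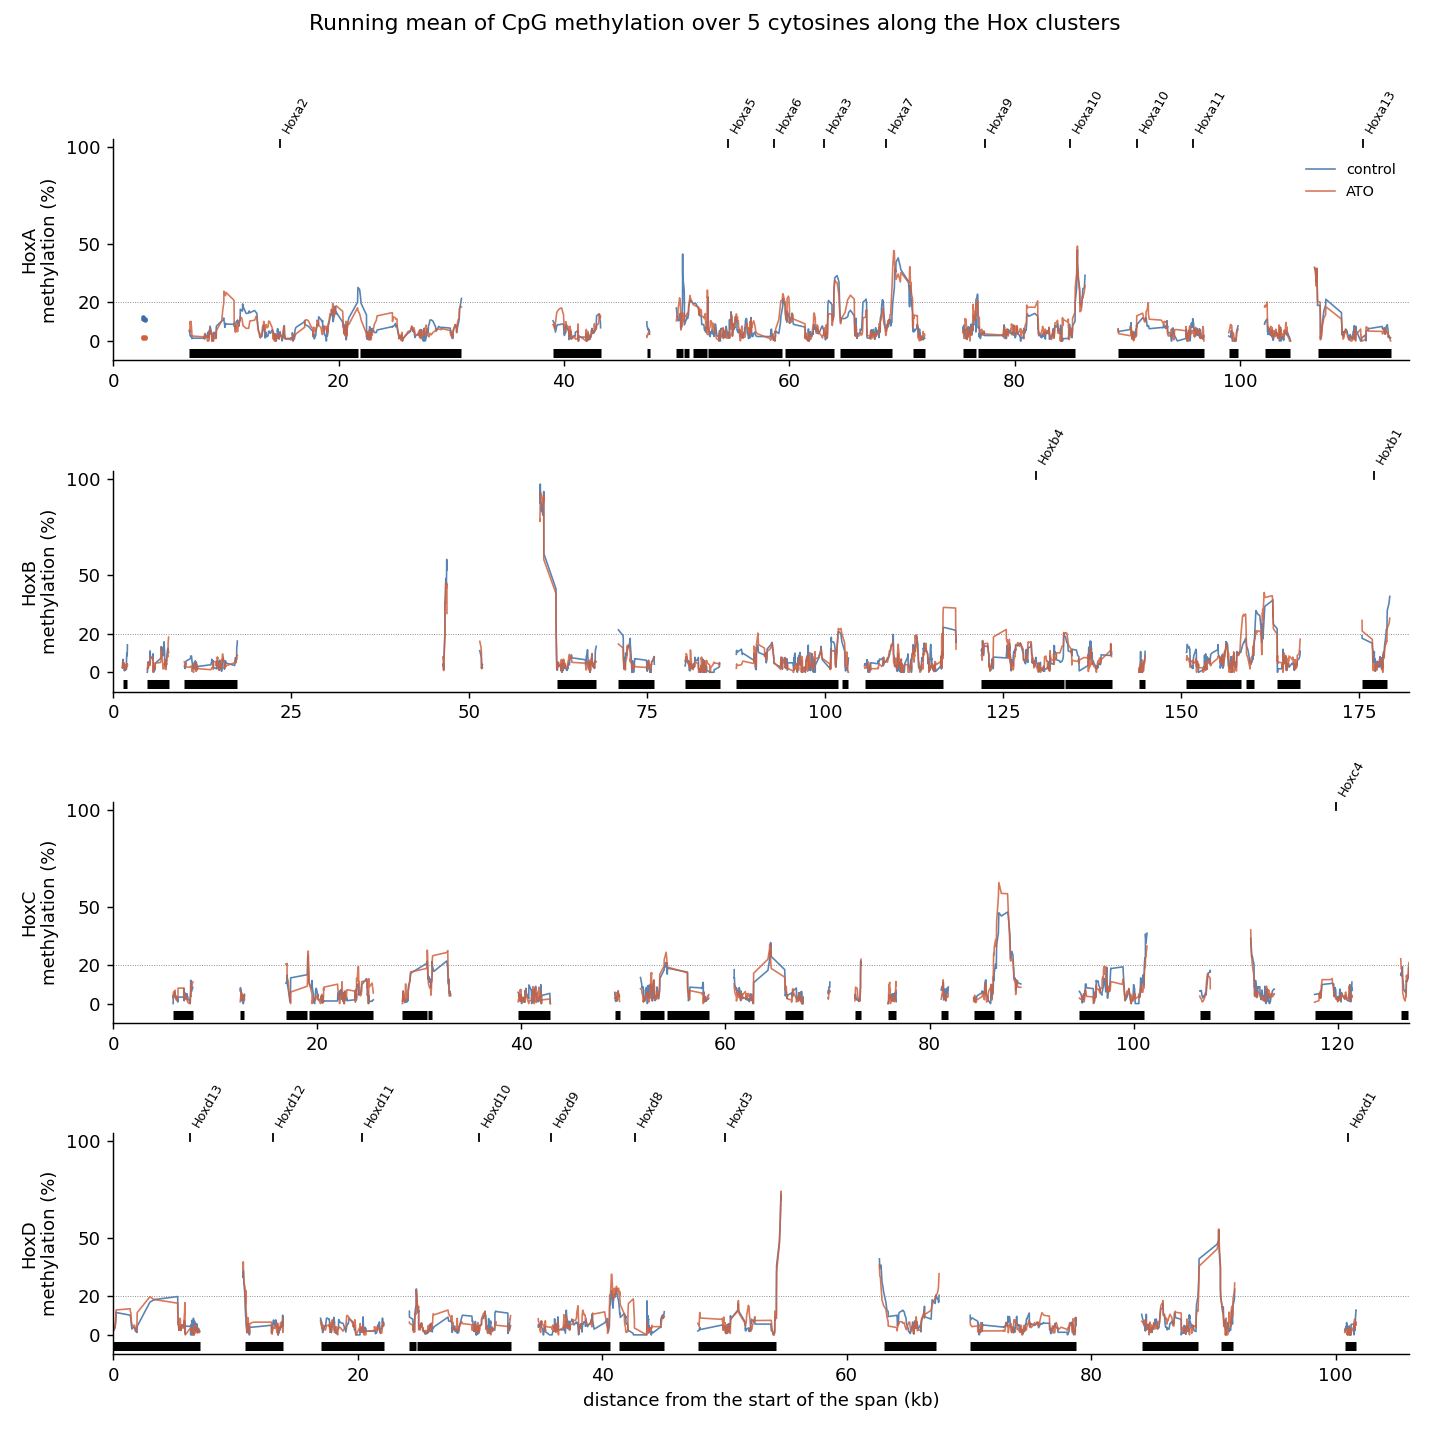
Running mean of methylation over 5 analysed cytosines (percent) against distance from the start of each Hox span (kb), with the control library in blue and the ATO library in orange. Black bars are unmethylated stretches, ticks at the top are starts of placed promoters, the dotted line is 20%, and lines break where neighbouring cytosines are over 2000 bp apart. Where measured, both libraries stay low along most of each cluster and rise together at few places, the highest in HoxB.

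The stretches covered 64.5% of the HoxA span in 17 pieces, 47.9% of HoxB in 16, 36.1% of HoxC in 22 and 55.7% of HoxD in 13. They were long. Of the 10 longest unmethylated stretches found over the analysed cytosines of the genome 4 were Hox stretches, and of the 100 longest 18 were. Among the 188 stretches of 5000 bp or more, 22 (11.7%) lay in the clusters, although the clusters held only 68 of all 19001 stretches (0.358%). Put the other way, 32.4% of the Hox stretches reached 5000 bp, against 0.877% of the others. These shares are a description, since neighbouring stretches of 1 cluster are not independent.

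In HoxA the longest stretch was chr6:52106767-52121682 (14916 bp, 350 analysed cytosines), the 4th longest of the genome. It held the promoter of Hoxa2, a gene of hindbrain and branchial arch patterning, and its mean level was 5.04% in the control library and 5.62% in the ATO library. The next, chr6:52121928-52130906 (8979 bp), began only 246 bp further on and had 4.52% and 4.56%. Then came chr6:52176736-52185355 (8620 bp), which held the promoters of Hoxa9 and of 1 of 2 placed Hoxa10 transcripts, at 4.16% and 5.43%. All 3 were higher in the ATO library, by 0.579, 0.0401 and 1.27 points, where the SD of the difference over HoxA stretch cytosines was 6.57 points.

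In HoxB the longest stretch was chr11:96137512-96151764 (14253 bp, rank 5 in the genome), at 5.51% in the control library and 5.17% in the ATO library. Next were chr11:96171914-96183468 (11555 bp), which held the promoter of Hoxb4, at 6.58% and 6.37%, and chr11:96155516-96166531 (11016 bp) at 4.88% and 4.90%. These 3 stretches ranked 5, 10 and 11 in the genome.

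HoxC had 22 stretches, and 12 of its 21 breaks held an unmeasured gap and no measured rise. With breaks at gaps over 500 bp it had 30, fewer than HoxA with 34 and HoxB with 31. Its longest stretches were chr15:102839688-102846053 (6366 bp, rank 88) at 6.48% and 5.88%, chr15:102764155-102770489 (6335 bp) at 3.91% and 4.77%, and chr15:102799292-102803361 (4070 bp) at 4.93% and 4.75%.

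In HoxD the longest stretch, chr2:74495451-74507063 (11613 bp, rank 9), ran past the edge of the span. It joined the promoter of Hoxd13, a gene of digit formation, with that of Evx2, a related homeobox gene outside the span, and had 4.30% in the control library and 4.72% in the ATO library. The stretch chr2:74570100-74578759 (8660 bp) had 4% and 3.90%, and chr2:74524874-74532503 (7630 bp), with the promoter of Hoxd10, had 4.23% and 4.32%.

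**Figure D2:**
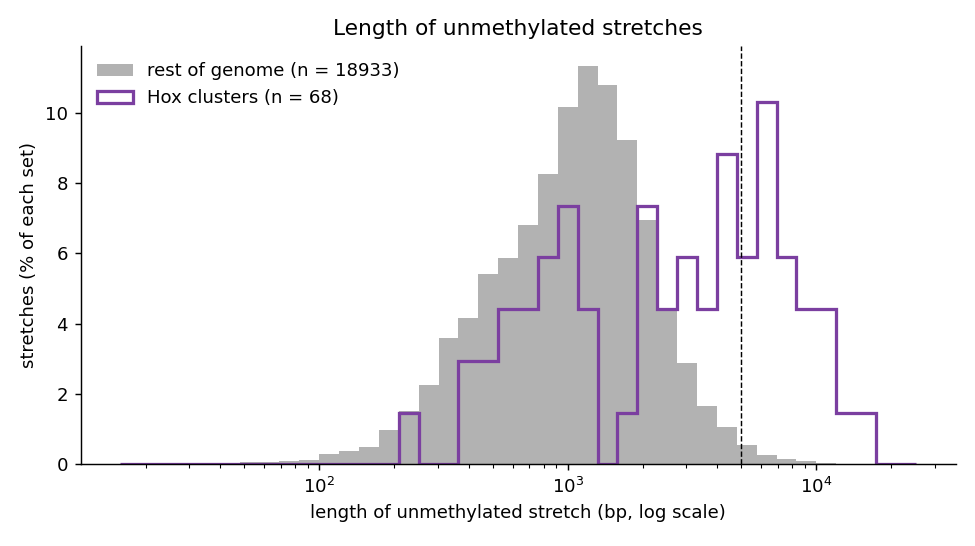
Length of unmethylated stretches (bp, log scale) as a percent of each set, in grey for 18933 stretches outside the Hox clusters and in purple for the 68 Hox stretches. The dashed line marks 5000 bp, which 32.4% of Hox stretches and 0.877% of the others reached.

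The lengths also carry what was measured. Of the 64 breaks between neighbouring Hox stretches, 31 held an unmeasured gap and no measured rise, 20 were measured rises in level, and 13 held both. A HoxC break among the 31 also held 6 analysed cytosines at a low level, too few for a stretch. A stretch that ends at an unmeasured gap may in truth go on. The Hox stretches had 26.7 analysed cytosines per kb, against 42.7 per kb in stretches elsewhere.

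Within stretches the 4 clusters were close to each other and above stretches elsewhere. In the control library the mean level was 5.14% (counting interval 4.93 to 5.34) in HoxB, 4.95% (4.71 to 5.20) in HoxC, 4.87% (4.67 to 5.08) in HoxA and 4.55% (4.32 to 4.78) in HoxD. No neighbours in that order had separate intervals. In the ATO library HoxA came first with 5.39% (5.20 to 5.59), followed by HoxB with 4.95% (4.75 to 5.14), HoxC with 4.82% (4.57 to 5.06) and HoxD with 4.6% (4.37 to 4.82). There the interval of HoxA lay above that of HoxB, and the other neighbours overlapped. These intervals are 95%, cover counting error only, and treat calls as independent.

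Stretches in the rest of the genome had 3.41% in the control library and 3.40% in the ATO library. Restricted to stretches of 5000 bp or more, the Hox clusters had 4.85% and 4.93% and the other stretches 3.78% and 3.91%. Of the Hox cytosines in stretches 38% were at 0 in the control library and 36% in the ATO library, against 54% and 51.9% elsewhere. Median coverage moved with this, at 42 and 45 in Hox stretches and 36 and 39 in the others, and its part in the share at 0 was not tested. Mitochondrial cytosines, often read as a gauge of incomplete conversion, had a mean level over cytosines of 3.45% and 3.68%, and 1.97% and 2.06% of their calls were methylated.

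The level was highest at the rims of long stretches. Within 100 bp of an edge the Hox stretches of 5000 bp or more had 9.04% in the control library and 8.72% in the ATO library, near the 9.03% and 9.29% elsewhere. At 1000 to 2000 bp from an edge they had 4.31% and 4.04%, against 3.30% and 3.42% elsewhere. Beyond 2000 bp the Hox means were 5.03% and 5.37%, and the others 3.60% and 3.73%. The Hox interiors stood above the others in both libraries, while the rims differed by less. These are means over cytosines of 22 Hox stretches and were not tested.

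**Figure D3:**
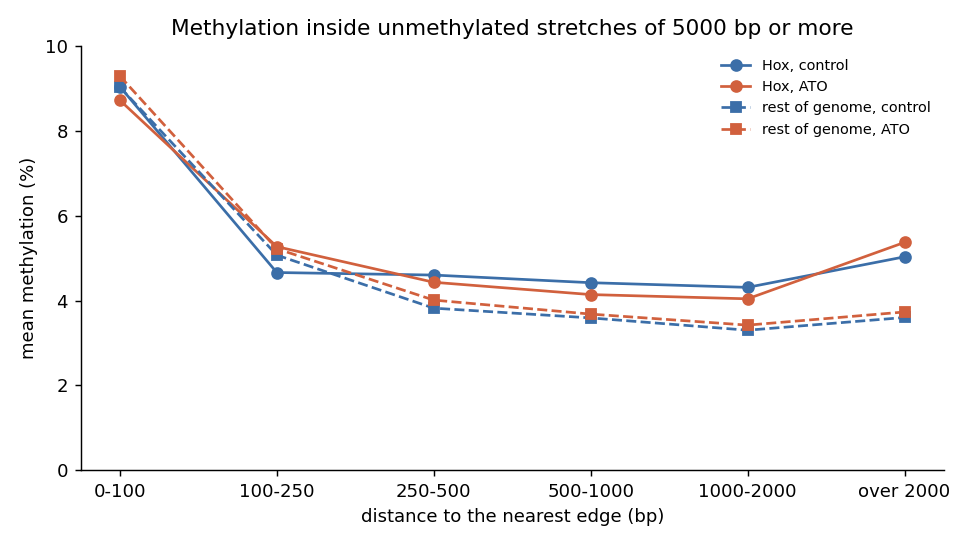
Mean methylation (percent) inside unmethylated stretches of 5000 bp or more by distance to the nearest edge (bp), for Hox stretches (circles, solid lines) and others (squares, dashed lines) in the control (blue) and ATO (orange) libraries. The lines start near 9% at the edge, where the stretch rule itself favours higher levels. They part further in, where Hox interiors beyond 2000 bp are at 5.03% and 5.37% and the others at 3.60% and 3.73%.

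Between the libraries the stretches hardly differed. Over the 4 clusters the mean difference (ATO minus control) was 0.0823 points (counting interval -0.0704 to 0.235, SD over cytosines 6.65). HoxA was higher in the ATO library by 0.521 points (0.239 to 0.803), and 14 of its 17 stretches were higher. HoxB differed by -0.188 points (-0.471 to 0.0945), HoxC by -0.135 (-0.483 to 0.214) and HoxD by 0.0462 (-0.277 to 0.37), and in these the higher stretches numbered 6 of 16, 9 of 22 and 7 of 13. Stretches elsewhere on chromosome 6, outside HoxA, had 3.28% and 3.24%, a difference of -0.0377 points. With 1 library per group, whether the HoxA difference exceeds that between 2 animals of 1 group was not tested.

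Edges also fell at like places when each library was segmented alone. The control gave 69 Hox stretches and the ATO library 70. Of the bases in control stretches 95.6% were also in ATO stretches, and of those in ATO stretches 96.6% were in control stretches. Of the 138 control edges 87 fell on the same cytosine in the ATO library and 120 within 500 bp.

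The promoters of the genes themselves could be read for part of the clusters. The RefSeq table held sequences for 22 of the 38 Hox genes, and 20 of these could be placed on the mm9 coordinates of the tables by the spacing of their CpGs. Hoxb8 and Hoxd4 were not placed. Promoter windows span 250 bases before and 50 after the start. Of the placed genes 16, with 17 windows, had at least 4 analysed cytosines. Their median level, as methylated calls among all calls in the window, was 3.59% in the control library and 4.22% in the ATO library, and 16 of the 17 windows (94.1%) were under 10% in both. All 12670 placed windows of the genome with such data had medians of 2.11% and 2.13%, and 86.5% were under 10% in both. In the ATO library 9 Hox windows were lower and 8 higher, and none of their 260 cytosines was called by the rule given below, against 0.245% of the 209511 cytosines in all placed windows. With at least 20 calls the order of the Hox medians turned, at 4.35% in the control library and 4.22% in the ATO library.

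Genes of the 3′ side of the clusters, which pattern the hindbrain and neck, were among them. Hoxa2 (chr6:52114781-52115080) had 3.59% (exact interval 1.56 to 6.95) in the control library and 2.77% (1.12 to 5.62) in the ATO library. Hoxb1 (chr11:96226822-96227121), which gives a hindbrain segment its identity, had 9.58% (6.72 to 13.1) and 3.95% (2.12 to 6.66), the largest fall among the Hox windows. Hoxd1 (chr2:74600787-74601086), known in pain-sensing neurons, had 2.91% and 1.92%. Hoxa3 (chr6:52163017-52163316), needed for organs of the pharyngeal arches, had 2.58% (1.62 to 3.87) and 5.39% (3.8 to 7.38), and Hoxd3 (chr2:74549800-74550099), needed for the first vertebrae, had 3.27% (2.06 to 4.91) and 5.99% (4.45 to 7.86). Hoxa3 and Hoxd3 were higher by 2.81 and 2.71 points, and Hoxb1 was lower by 5.63. The placed Hoxa3 start lay between those of Hoxa6 and Hoxa7. A start of another transcript, Gm38462 (chr2:74550066-74550365), overlaps the Hoxd3 window and was not higher, at 3.21% and 2.93% over 35 cytosines. The intervals of Hoxb1 were just apart, those of Hoxa3 and Hoxd3 overlapped, and calls on 1 fragment are not independent.

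Genes of the middle group pattern the trunk. Hoxb4 (chr11:96179331-96179630), also known in blood stem cells, had 5.05% and 4.70%. Hoxc4 (chr15:102864576-102864875) had 5.65% and 4.44%, and was the single HoxC gene with a placed promoter. Hoxa5 (chr6:52154537-52154836), needed for lung development, had 6.91% (5.62 to 8.39) and 4.22% (3.18 to 5.46), which fell by 2.70 points with intervals just apart. Hoxa6 (chr6:52158622-52158921) had 1.59% and 1.18%, and Hoxa7 (chr6:52168523-52168822) had 6.79% and 8.05%.

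Hoxd8 (chr2:74542422-74542721) had 0 methylated of 79 calls in the control (0%, exact interval 0 to 4.56) and 16 of 147 in the ATO library (10.9%, 6.35 to 17.1). The whole difference of 10.9 points rests on 5 cytosines, at a median of 14 calls in the control library and 28 in the ATO library, and none of them was called. The 500-bp bin over this window, chr2:74542501-74543000, held the same 5 cytosines, so its difference of 10.9 points is no second observation. It was not called (Fisher's exact test with Benjamini-Hochberg adjustment over all bins, adjusted p = 1).

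Genes of the 5′ side, which pattern the limbs and the hind body, were low as well. Hoxa10, known in the uterus, had 3.39% and 4.06% at chr6:52184889-52185188 and 6.90% and 7.07% at the start of another transcript, chr6:52190804-52191103. Hoxa11 (chr6:52195760-52196059), a gene of forearm and kidney formation, had 6.70% and 4.95%. Hoxd10 (chr2:74529698-74529997) had 2.69% and 2.91%, Hoxd11 (chr2:74520130-74520429) 2.37% and 3.47%, and Hoxd12 (chr2:74512820-74513119) 5.59% and 2.83%. Hoxd13, Hoxd9, Hoxa13 and Hoxa9 had under 4 analysed cytosines in their windows, although the tables listed all 37 CpGs of the Hoxd13 window and 42 of the 45 of Hoxa13. In Hoxd13, Hoxd9 and Hoxa13 most listed CpGs were under the depth minimum, and the calls that passed it were at 0 in both libraries (upper limit of the exact interval 16.1% and 15.4% at Hoxd13, 30.8% and 14.2% at Hoxa13). The single analysed cytosine of Hoxa9, whose window has 4 CpGs, had 10.3% (2.87 to 24.2) and 6.82% (1.43 to 18.7).

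**Figure D4:**
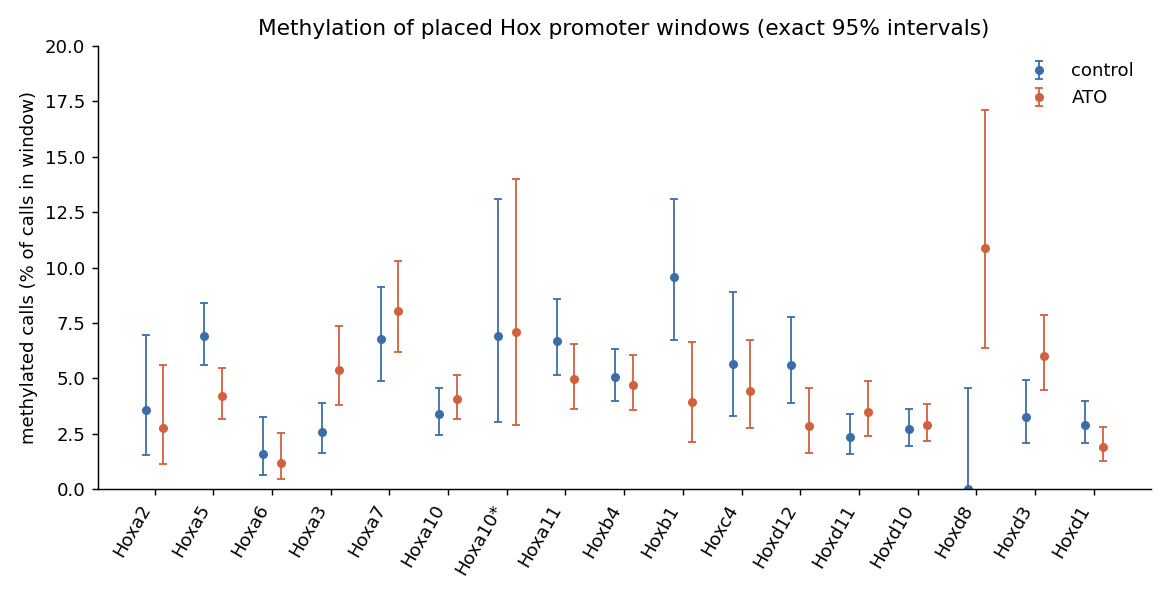
Methylated calls as a percent of all calls in each placed Hox promoter window of 300 bases, in cluster order, for the control (blue) and ATO (orange) libraries, with exact 95% intervals that cover counting error only. The asterisk marks the start of another Hoxa10 transcript; Hoxd8 goes from 0% to 10.9%, Hoxb1 from 9.58% to 3.95%, and most other pairs overlap.

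Noncoding and neighbouring transcripts shared these levels. Hottip, a long noncoding RNA at the 5′ end of HoxA, had 5.70% and 5.14%. Hoxb3os, antisense to Hoxb3, had 2.56% and 3.87%, and Hoxa11os had 4.71% and 2.83%. A start of Gm38462 in HoxD (chr2:74543609-74543908) had 7.31% (5.64 to 9.30) and 2.34% (1.61 to 3.27) over 34 cytosines. It lies next to the Hoxd8 window, in the same stretch, and moved the opposite way.

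Of 22 genes that act with the Hox genes or regulate them (the Pbx, Meis and Pknox cofactors, the related homeobox genes Evx1, Evx2, Cdx2 and Cdx4, and Polycomb and Trithorax genes), 16 had a placed promoter and 14 of these had values. In 13 of the 14 the level was under 10% in both libraries. For example, Ezh2, the enzyme of Polycomb histone methylation, had 2.51% and 1.57%, and the cofactor Meis1 had 1.86% and 1.98%. Evx1 and Evx2, which lie beside HoxA and HoxD, had 6.73% and 4.72%, and 6.41% and 6.40%. The exception was Cdx4 on chromosome X, an activator of Hox genes in the embryo, at 44.7% (38.4 to 51.0) in the control library and 36.6% (29.8 to 43.8) in the ATO library. The ATO level was lower in 6 of these 14 windows and higher in 8, and none of their 203 cytosines was called, near the 0.245% over all placed windows.

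Single cytosines were compared between the libraries with Fisher's exact test, two-sided, with Benjamini-Hochberg adjustment over all 2312276 cytosines. The call required both an adjusted p under 0.05 and at least 25 points between the libraries. In the Hox clusters 11 of 7355 were called (0.15%), against 2.65% of all cytosines. In the ATO library 5 were lower (genome-wide 1.73%) and 6 higher (genome-wide 0.916%). HoxA held 4, HoxB 6, HoxC 0 and HoxD 1. An unadjusted p under 0.05 was found at 71 of the 1438 HoxC cytosines (4.94%), and at 6.70%, 6.75% and 5.49% in HoxA, HoxB and HoxD, against 12.8% in the rest of the genome. Within stretches it was 5.87% in the clusters and 4.07% elsewhere. Inside unmethylated stretches 6 Hox cytosines (0.0849%) were called, against 0.104% elsewhere. Of these 3 were lower (0.0584% elsewhere) and 3 higher (0.0458% elsewhere). Among partly methylated cytosines 5 of the 214 in the clusters (2.34%) were called, against 6.72% elsewhere, 2 of them lower (4.41% elsewhere) and 3 higher (2.31% elsewhere).

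No 500-bp bin was called among 436 in the clusters, against 1.8% of bins in the genome (1.17% lower, 0.63% higher). Most Hox cytosines lay in unmethylated stretches, and the share of bins called in such stretches elsewhere was not counted. Single cytosines were called at 0.104% in stretches elsewhere, against 2.65% of all cytosines. Bins were compared by Fisher's exact test on summed calls, divided by the largest number of cytosines that 300 bp could hold, and none of the 436 had an unadjusted p under 0.05. The division lowers the counts and so makes small p-values rarer. With all calls counted as independent 85 had one, and still none was called. Under that setting 4.94% of bins in the genome were called. The genome-wide share of bins with an unadjusted p under 0.05 was not counted under either setting. Bin differences ran from -11.1 to 13.3 points, and 3 bins reached 10 points in either direction. At the median depth a cytosine with 0 of 42 methylated calls in the control needed 12 of 45 (26.7%) in the ATO library to be called. The 25-point minimum itself sets much of this limit. With a minimum of 10 points at the same adjusted p, 32 Hox cytosines were called, 16 lower and 16 higher. The genome-wide share under that minimum was not counted.

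**Figure D5:**
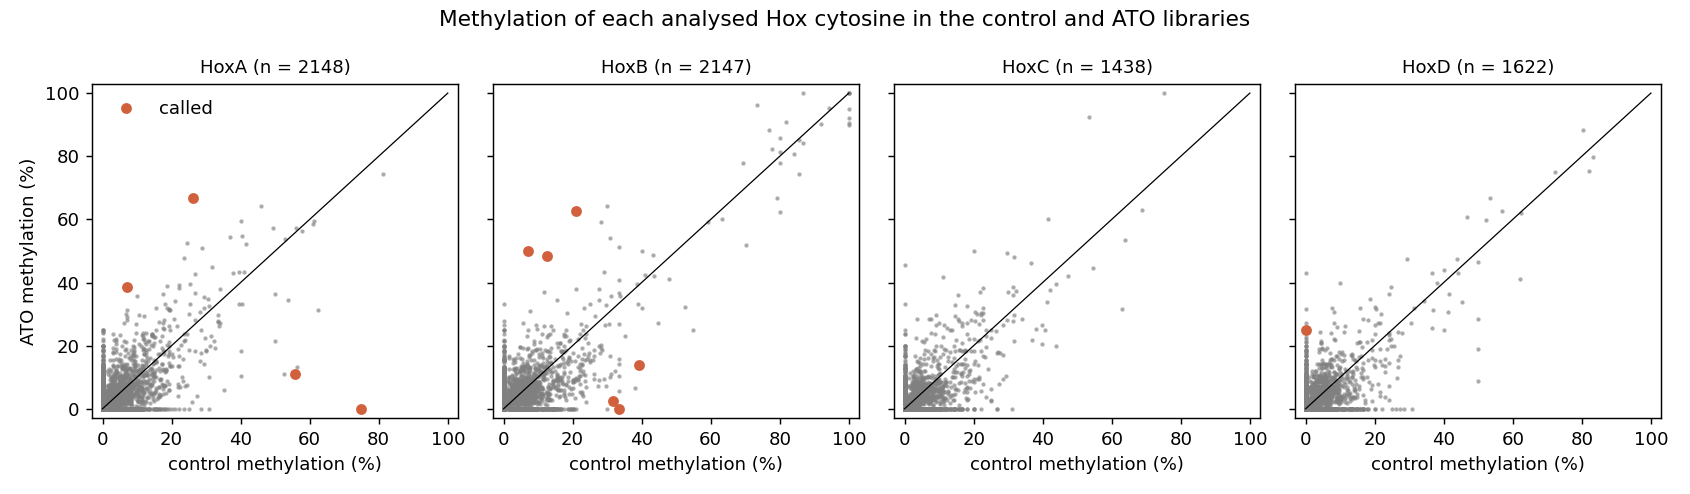
Methylation of each analysed cytosine (percent) in the ATO library against the control library, 1 panel per cluster, with called cytosines as large orange points and the line of equal levels. Most points sit in the low corner, the HoxB panel has a group of highly methylated cytosines in both libraries, and the 11 called cytosines are scattered over HoxA, HoxB and HoxD.

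The largest fall was at chr6:52150535, from 9 of 12 calls (75.0%) to 0 of 11 (adjusted p = 0.014, Fisher's exact test). It lay in a patch of 5 cytosines within 9 bp, chr6:52150527-52150535, downstream of the Hoxa5 start by 4051 bp. All 5 were lower, with a mean of 44.8% in the control library and 13.4% in the ATO library. The median depth there was 16 and 14 calls, and cytosines this close share reads, so they amount to 1 observation. Next was chr6:52121928, from 24 of 43 calls (55.8%) to 5 of 45 (11.1%; Fisher's exact test, adjusted p = 0.00091). It sits at the edge of the second HoxA stretch, and its neighbour 64 bp away had 41.1% and 43.3%. The cytosines at 213 and 246 bp were lower (21.7% and 7.69%, 14.3% and 8.16%), and that at 70 bp on the other side was at 0 in both.

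In HoxB the falls were at chr11:96057190 (33.3% to 0%), chr11:96122644 (31.7% to 2.44%) and chr11:96210510 (39.3% to 13.8%), with adjusted p of 0.0067, 0.024 and 0.046 by Fisher's exact test. Around the first, the 3 analysed cytosines on one side were also lower in the ATO library (12.5% and 5% at 14 bp, 9.52% and 0% at 42 bp, 6.98% and 0% at 213 bp). On the other side those at 13 and 32 bp were higher (0% and 5.26%, 6.90% and 13.5%), and that at 44 bp was at 0 in both.

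The largest rise was at chr11:96225410, from 3 of 42 calls (7.14%) to 7 of 14 (50%; Fisher's exact test, adjusted p = 0.035), upstream of the Hoxb1 start by 1662 bp. Its neighbour 19 bp away had 17.1% and 18.2%. A pair 11 bp apart in HoxB rose together, chr11:96208803 from 20.9% to 62.5% and chr11:96208792 from 12.5% to 48.5%, while the next cytosines at 182 and 240 bp had 12.5% in both libraries and 13.8% against 11.6%. In HoxA, chr6:52169177 rose from 26.1% to 66.7% and chr6:52109828 from 7.14% to 38.7%. The single HoxD call, chr2:74505863, went from 0 of 38 to 7 of 28 calls (25%), upstream of the Hoxd13 start by 419 bp, just at the difference the rule requires. It was the smallest of the 6 rises, named after its value was seen.

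The rise at chr6:52169177 lay in a partly methylated patch, chr6:52169111-52170849, upstream of the Hoxa7 start by 539 bp. The patch held 25 cytosines with a mean of 28.5% in the control library and 35.3% in the ATO library, and 18 of the 25 were higher. Single differences in it ran from -31.2 to 40.6 points. Its mean includes the called cytosine, and close cytosines can share reads, so the patch is no separate support. The rise at chr6:52109828 lay in the bin chr6:52109501-52110000, which had 9.75% in the control library and 23.0% in the ATO library and was not called (Fisher's exact test, adjusted p = 0.94). The values of that bin include the called cytosine, which lies downstream of the Hoxa2 start by 5002 bp.

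Few analysed parts of the clusters were methylated. In the 43 patches outside stretches, 243 cytosines were partly methylated or methylated, and 18 patches held at least 5. The mean of 10 of these was lower in the ATO library and that of 8 higher, with differences from -31.4 to 10.3 points. The most methylated was chr11:96109920-96112194 in HoxB, with 23 cytosines at a mean of 81.7% in the control library and 81.2% in the ATO library. It lies upstream of the Hoxb4 start by 67387 bp. That is the nearest placed Hox promoter, as most HoxB genes had none placed. HoxB held 22 of the 29 cytosines in methylated parts, at 88.0% and 87.1%, HoxC 3, HoxD 4 and HoxA none.

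Over all 29 methylated cytosines the mean was 82.7% in the control library and 84.7% in the ATO library, which differ by 1.93 points (counting interval -2.23 to 6.09). The sign did not hold with depth: with at least 20 calls in both libraries 12 cytosines were left and the difference was -8.2 points. The rest of the genome had 80.8% and 78.5% in methylated parts. Partly methylated Hox cytosines had 27.7% and 28.7%, a difference of 0.923 points (-0.339 to 2.18), against 35.7% and 33.0% elsewhere, a difference of -2.70. By cluster this difference was 0.0369 points in HoxA, 1.39 in HoxB, 2.13 in HoxC and 0.201 in HoxD. The difference between Hox and other partly methylated cytosines was not tested.

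The patches nearest to placed promoters were in HoxA. One of 8 cytosines, chr6:52185372-52185762, upstream of the Hoxa10 start by 434 bp, had 32.9% and 36.3%. Another of 5, chr6:52163952-52164404, upstream of the Hoxa3 start by 886 bp, had 32.8% and 30.8%. In HoxD the patch chr2:74554261-74554625, downstream of the Hoxd3 start by 4211 bp, had 59.0% and 60.3% over 5 cytosines. All 6 cytosines of chr2:74562673-74562951 were lower in the ATO library, with means of 37.3% and 27.8%, and none was called. In HoxC the widest patch, chr15:102831340-102833175, had 31.1% and 39.3% over 13 cytosines, of which 9 were higher.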

How the data were processed

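Bisulfite-treated DNA was enriched with the SureSelect Mouse Methyl-Seq kit and sequenced, per the labels' protocols. Tools named in the submitters' processing notes are Bismark 0.19.0, Bowtie2 and bcl2fastq, with build mm9. Duplicate removal is not given in the sources used here. Per the file headers, each deposited table gives the coverage of a CpG cytosine as a count of C and T calls and the share of each as a percent. Their product gave the methylated count, whole within 0.005 percentage points at 100% of cytosines.

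The Hox spans held 384282 calls at 12137 cytosines in the control library and 409718 at 12323 in the ATO library. Cytosines with at least 10 calls in both libraries were kept, strands apart. Means over cytosines weight each alike. Their counting intervals sum the binomial variance of each cytosine, and exact intervals are Clopper-Pearson at 95%. All intervals and Fisher tests cover counting error only, and with 1 library per group they compare libraries, not conditions. Bins were 500 bp with at least 5 analysed cytosines, called at 20 points and an adjusted p under 0.05. Two-sided Fisher's exact tests and Benjamini-Hochberg adjustment ran over the whole genome with Python 3.11.15, numpy 2.4.6, scipy 1.17.1 and numba 0.67.0, and were tested on simulated data.

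No mm9 annotation was used. RefSeq promoter sequences of 300 bases were placed where at least 4 of their CpGs, and at least 60% of them, fell on listed CpGs of the chromosome, with at most 2 listed CpGs outside the sequence and no near second place. This placed 14539 of 32851, and 99.85% of 14494 neighbouring pairs followed RefSeq order. These limits, and the search of whole chromosomes instead of the spans, were set after the data were seen. Exons and introns are not used here. The members, gene lists and rules were chosen with earlier results of these data known. The rule named the 5 largest called falls and rises, the 3 longest stretches of each cluster and every placed Hox gene. Patches and other transcripts were picked after their values were seen. Alternatives changed the coverage minimum, call thresholds, stretch rule and weighting.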

Additional observations from a re-analysis of the deposited data

How the results depend on the processing

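Across 14 alternative settings 238 of 296 values stayed within the range set for them and 49 moved. For the called cytosines, 28 values were still called, which are among the 238, and 9 were no longer called. The difference at a single cytosine cannot change under these settings, so its sign could not reverse. Called Hox cytosines numbered 6 with at least 30 calls (3 lower, 3 higher), 3 at an adjusted p under 0.01 (2 lower, 1 higher) and 32 with differences from 10 points (16 lower, 16 higher). Genome-wide shares of called cytosines under these settings were not counted, so these numbers have no background beside them. At an adjusted p under 0.01 the 3 left were chr6:52121928, chr11:96057190 and chr6:52109828, and chr11:96210510 was also lost with at least 5 calls. No Hox bin was called under any of 5 alternatives. With all calls counted that outcome was fixed, because the differences stay the same and none reached 20 points. Stretches under a threshold of 10% numbered 27 in HoxA, 29 in HoxB, 26 in HoxC and 24 in HoxD, under 30% they numbered 11 in HoxA, and with breaks at gaps over 500 bp 34, 31, 30 and 25, then covering 37% of HoxD. The shared part of control stretches ran from 85.4% to 98.8%. Mean levels in stretches (control, then ATO) moved with the threshold. At 10% they were 3.81% and 4.16% in HoxA, 4.09% and 3.89% in HoxB, 3.91% and 3.77% in HoxC, and 4.02% and 3.97% in HoxD. At 30% they were 5.22% and 5.68%, 5.45% and 5.31%, 5.64% and 5.56%, and 4.82% and 4.90%. With at least 20 calls HoxA had 5.16% and 5.72% and the HoxB control 5.38%, and with at least 30 calls HoxA had 5.48% and 6.01% and HoxB 5.51% and 5.18%. Over 11 cytosines the HoxA control had 5.09% and HoxC 5.28% and 5.20%, and with each call weighted alike HoxA had 5.39% and 5.98% and HoxB 5.52% and 5.29%. The HoxA difference stayed between 0.349 and 0.609 points in 9 alternatives, while that of HoxD changed sign (-0.0545 to 0.0829), as did the Hoxa6 promoter difference (-0.81 to 0.577). In methylated parts the difference was -8.2 points with at least 20 calls (12 cytosines) and -4.16 with at least 30 (3 cytosines). No paired analysis was possible because each group had 1 library. The promoter and edge alternatives were chosen after seeing the data.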

Other observations

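The Hox cytosines left out for shallow coverage had levels like the analysed ones inside stretches. There, 4.53% of 15243 calls were methylated in the control (exact interval 4.2 to 4.87) and 4.82% of 16918 in the ATO library (4.51 to 5.16). Outside stretches the shallow calls were methylated in 16.1% in the control (14.8 to 17.4) and 19.0% in the ATO library (17.7 to 20.4). In HoxB alone these were 29.3% (26.3 to 32.5) of 859 calls and 37.0% (34.0 to 40.1) of 1010 calls. Different cytosines can enter the shallow set of each library, so these shares are not a comparison of the same sites. At the 97 Hox CpGs analysed on both strands the mean level was 4.97% on the forward and 5.81% on the reverse strand in the control library, and 5.34% and 6.41% in that from ATO mice.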
